A study of Arabidopsis thaliana with 9 samples.

Results

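Cytochrome P450 genes form one of the largest enzyme families of plants, and 219 of them are described here among the 27444 nuclear protein-coding genes of Arabidopsis thaliana. They are the protein-coding genes whose symbol is CYP, a family number, a subfamily letter and a gene number. A total of 225 genes carry a symbol of this form, and 6 of those are annotated as transcribed pseudogenes and were left out. A further 15 protein-coding genes are filed under another symbol, such as BAS1 or DWF4, and have a P450 name of this form as synonym. They are described separately. The group was chosen by the percent of genes and flanks under broad peaks of both marks, as seen in earlier results of these data. The coverage values of genes, flanks, families and tandem clusters are therefore given as a description, without a test.

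P450 enzymes are haem proteins that insert oxygen into small molecules, and in plants they act with an electron donor, the P450 reductase, at the endoplasmic reticulum. They make or break down sterols, most plant hormones, lignin and flavonoid precursors, the lipids of cuticle and pollen wall, and many defence compounds. Families are numbered by protein similarity, and many plant P450 genes lie in tandem arrays of close relatives. Mono- and trimethylation of lysine 27 of histone H3 are linked in Arabidopsis to silent heterochromatin and to genes repressed by Polycomb complexes, respectively.

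All samples were sperm nuclei of htr10 mutant plants, sorted by flow cytometry after staining of the DNA. HTR10 encodes a histone H3 of the male germline. Mononucleosomes released with micrococcal nuclease were immunoprecipitated with antibodies against H3K27me1 (3 samples) or H3K27me3 (3 samples), and 3 samples were input chromatin. The ecotype label is Col-0 for 5 samples and Col-1, Col-2, Col-3 and Col-4 for 1 sample each. Chromatin of other genotypes is not analysed here, and nothing below measures what the mutation changed. HTR10 had 0% of its length under broad peaks of either mark, which does not bear on whether the gene was intact.

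Each mark had 1 list of broad and 1 list of narrow peaks. The H3K27me1 list held 11898 broad peaks over 20.5 Mb, and the H3K27me3 list held 12927 over 20.4 Mb. The lists hold no value per sample, so no value below has a replicate error, and the sequencing depth is unknown. A gene is called touched when at least 1 of its bases lies under a broad peak, and covered when at least 50% of its length does.

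P450 genes with a CYP symbol were rarely covered over most of their length by either mark. H3K27me1 covered 1 of 219 P450 genes (0.457%), against 5.49% of all protein-coding genes. H3K27me3 covered 0 of 219, against 5.67% of all protein-coding genes. None of the 219 genes lay wholly under broad peaks of H3K27me1, against 3.88% of all genes, or of H3K27me3, against 3.89%. At the lower bound of 25% of the gene, H3K27me1 reached 10 members (8.98% of all genes) and H3K27me3 reached 12 (9.63% of all genes). Among protein-coding genes of 1500 to 3000 bp, a range that holds 195 of the 219 members, 2.87% were covered by H3K27me1 and 2.96% by H3K27me3, with the same 1 member and 0 members. Median lengths were 2054 bp for the P450 genes and 2078 bp for all protein-coding genes.

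**Figure D1:**
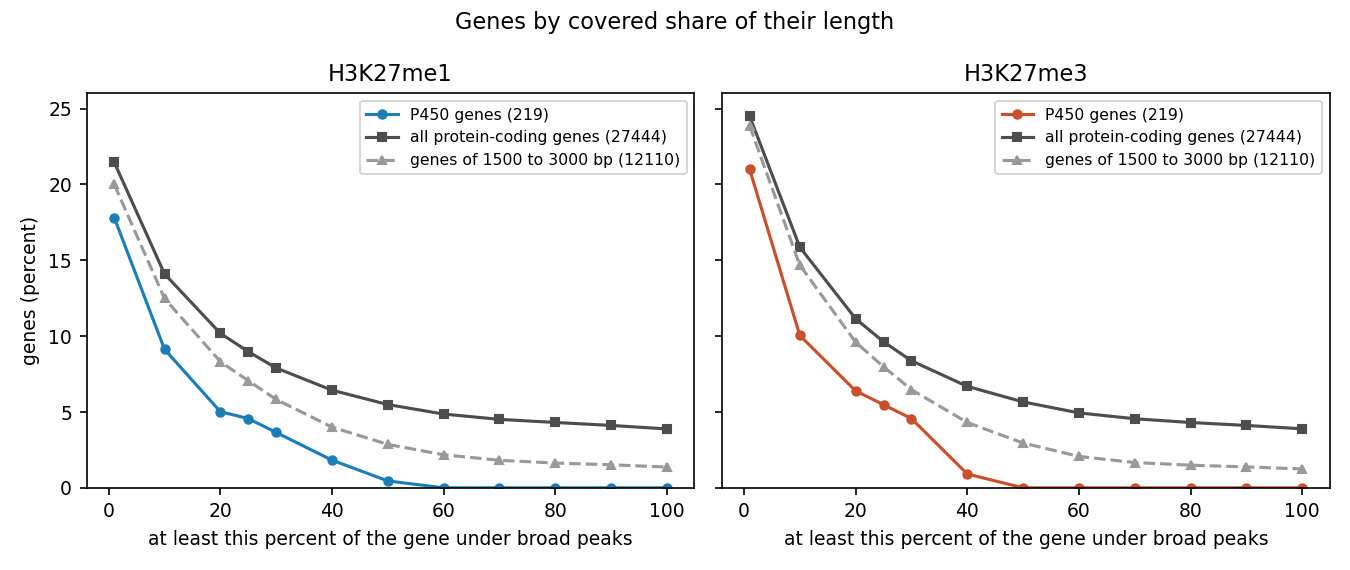
Share of genes (percent) with at least the given percent of their length under broad peaks, for H3K27me1 (left) and H3K27me3 (right). Circles are the 219 P450 genes, squares all 27444 protein-coding genes and triangles the 12110 genes of 1500 to 3000 bp. The P450 curve reaches 1 gene (H3K27me1) and 0 genes (H3K27me3) at 50%, where the curve of all genes stands at 5.49% and 5.67%.

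Contact with a peak was common by comparison. H3K27me1 touched 42 P450 genes (19.2%), against 22.7% of all genes, and H3K27me3 touched 46 (21%), against 26%. Both marks touched 31 members (14.2%; 17.5% of all genes), H3K27me1 alone touched 11 (5.02%; 5.17% of all genes) and H3K27me3 alone 15 (6.85%; 8.54% of all genes). Neither mark touched 162 members (74%; 68.8% of all genes). The mean covered share of a P450 gene was 2.85% for H3K27me1 and 3.16% for H3K27me3, while the means over all genes were 7.41% and 7.93%. The median was 0% for both marks in both sets.

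The peaks that touched P450 genes mostly lay across a gene edge. Of 45 such H3K27me1 peaks, 39 crossed an edge, 6 lay inside a gene and 0 held a whole gene. Of 49 such H3K27me3 peaks, 40 crossed an edge, 9 lay inside a gene and 0 held a whole gene. The same split was not counted for peaks that touched genes in general, so it is not shown to be particular to P450 genes. The outermost 25% of the gene length at each end held 65.9% of the member bases under H3K27me1 and 63.6% of those under H3K27me3, and the figures over all genes were 64.0% and 65.3%. The authors' fold enrichment of these peaks was modest, with a median of 1.59 for H3K27me1 and 1.62 for H3K27me3. The medians of the whole lists were similar, at 1.57 and 1.64. The maximum over P450 genes was 2.19 for H3K27me1 and 2.07 for H3K27me3. A −log10 q of at least 5, a stricter bound on the authors' own value, was reached by 6 of the 45 H3K27me1 peaks (13.3%; 19.6% of the whole list) and 6 of the 49 H3K27me3 peaks (12.2%; 12.4% of the list). Peaks past that bound touched 5 members for H3K27me1 (5.02% of all genes) and 6 for H3K27me3 (3.28% of all genes), and narrow peaks touched 16 (8.5% of all genes) and 14 (8.25% of all genes).

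CYP71B23, of the large CYP71 family, was the only member over the 50% bound. H3K27me1 covered 50.7% of it with a peak at chr3:9593988-9595325 (TAIR10), with a fold of 1.67, and H3K27me3 covered 48.9% of it with a peak at chr3:9593017-9594267, with a fold of 1.70. The pair of peaks overlap in part, and the H3K27me1 peak reaches past one edge of the gene while the H3K27me3 peak lies inside it. CYP71A14 lay just under the bound for H3K27me1, with 49.5% of the gene under a peak at chr5:8601550-8603545 and a few bases under another, and had 30.3% under H3K27me3 at chr5:8601575-8602662. Neither gene held any base under the peaks that passed the stricter q bound.

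Several members had similar coverage by both marks. CYP86B1, which hydroxylates very long fatty acids for suberin, had 36.0% of its length under H3K27me1 and 42.4% under H3K27me3. CYP711A1 (MAX1), an enzyme of strigolactone synthesis, had 28.5% and 34.6%. CYP81H1 had 36.9% and 37.02%, CYP71A27 had 37.7% and 36.2%, CYP706A6 had 36.2% and 36.4%, and CYP71B14 had 25.2% and 25.9%. In each of these 6 genes the peaks of both marks entered from outside the gene. Over all P450 genes, 63.5% of the bases under H3K27me1 were also under H3K27me3, and 57.4% of the bases under H3K27me3 were also under H3K27me1 (67.8% and 63.0% over all genes).

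Other members lay under 1 mark alone. CYP81D1 had 44.8% under H3K27me1 from a single peak inside the gene at chr5:14254976-14256145, with a fold of 1.42, and 0% under H3K27me3. CYP98A3, the hydroxylase that leads towards lignin, had 37.6% under H3K27me3 at chr2:17059675-17060976, with a fold of 1.94, and 0% under H3K27me1. CYP81D6 (38.3%), CYP71A15 (29.3%) and CYP705A18 (18.6%) were likewise at 0% for H3K27me1, and CYP71B13 (19.3%) and CYP724A1 (13.5%), a P450 gene placed in brassinosteroid synthesis, were at 0% for H3K27me3. CYP706A5 had 44.0% under H3K27me1 and 10.2% under H3K27me3, and CYP72C1, which inactivates brassinosteroids, had 13.3% and 30.8%. A list without peaks over a gene does not show that the mark was absent there, and no difference between the marks was tested, since each had 1 list.

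**Figure D2:**
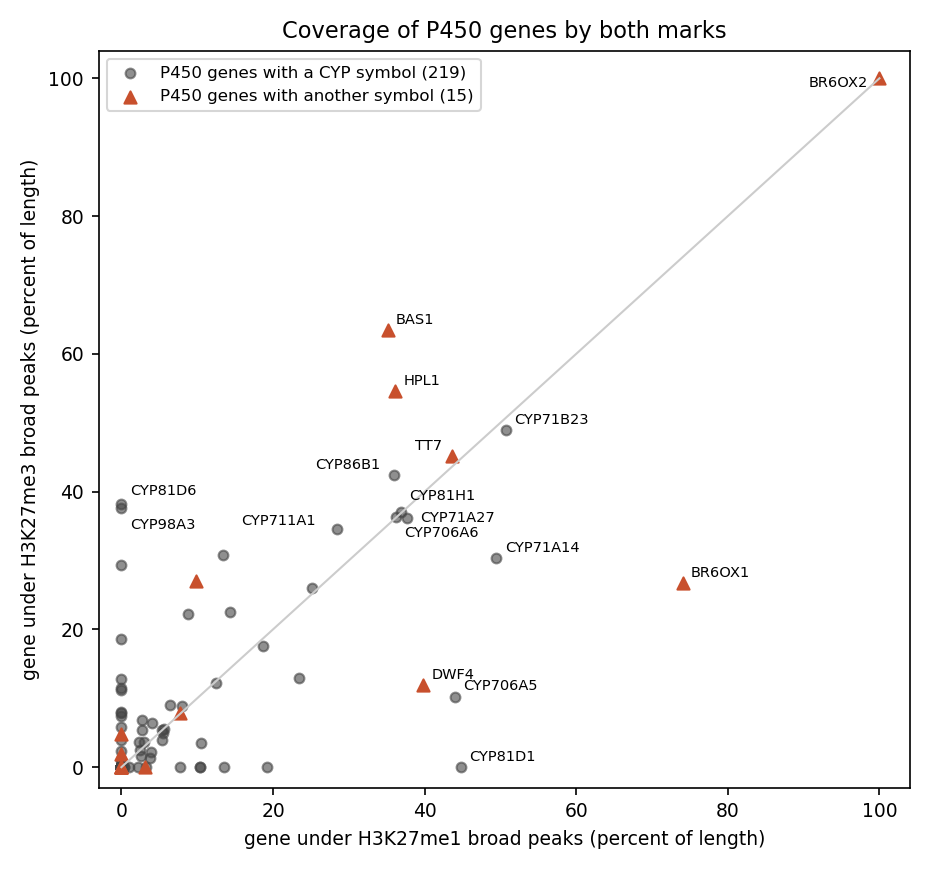
Percent of gene length under H3K27me1 (x axis) and H3K27me3 (y axis) broad peaks, 1 point per gene. Circles are the 219 P450 genes with a CYP symbol, most of them at 0 on both axes. Triangles are the 15 genes with another symbol and a P450 name of this form as synonym, and the line marks equal values. CYP71B23 is the circle farthest out, at 50.7% and 48.9%, and BR6OX2, at 100% on both axes, is the triangle farthest out.

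Beside the genes, coverage was several times that of the gene bodies. The mean covered share of the 1 kb on each side was 19.9% for H3K27me1 and 21.9% for H3K27me3 around P450 genes, and 19.96% and 22.03% around all genes. Over 2 kb on each side the P450 means were 17.5% and 19.5%, and those of all genes 18.07% and 19.7%. The 1 kb flanks were touched in 107 members by H3K27me1 (48.9%; 47.5% of all genes) and in 118 by H3K27me3 (53.9%; 53.2% of all genes). A touched flank beside an untouched gene was found in 69 members for H3K27me1 (31.5%; 25.8% of all genes) and in 74 for H3K27me3 (33.8%; 28.3% of all genes). At least 50% of the 1 kb flanks was covered in 30 members by H3K27me1 (13.7%; 15.9% of all genes) and in 34 by H3K27me3 (15.5%; 17.5% of all genes). No base under either mark was found in the gene or its 2 kb flanks in 64 members (29.2%; 33% of all genes).

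Coverage of P450 genes dropped steeply across the gene edge. With both edges pooled, since the strand of the genes was not used, 22.8% of positions 400 bp outside a P450 gene lay under H3K27me1 and 26.3% under H3K27me3. Among the 129 members of at least 2000 bp, the values were 10.5% and 12.02% at the edge itself and 5.8% and 6.2% at 200 bp inside. Over all genes the same 3 positions gave 22.04%, 12.9% and 7.9% for H3K27me1 and 24.3%, 14.8% and 8.9% for H3K27me3. The P450 curves thus lay above those of all genes at 400 bp outside and below them at the edge and 200 bp inside. At 1000 bp inside, both marks stood at 3.9% in P450 genes, with 3.2% and 3.3% over all genes.

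**Figure D3:**
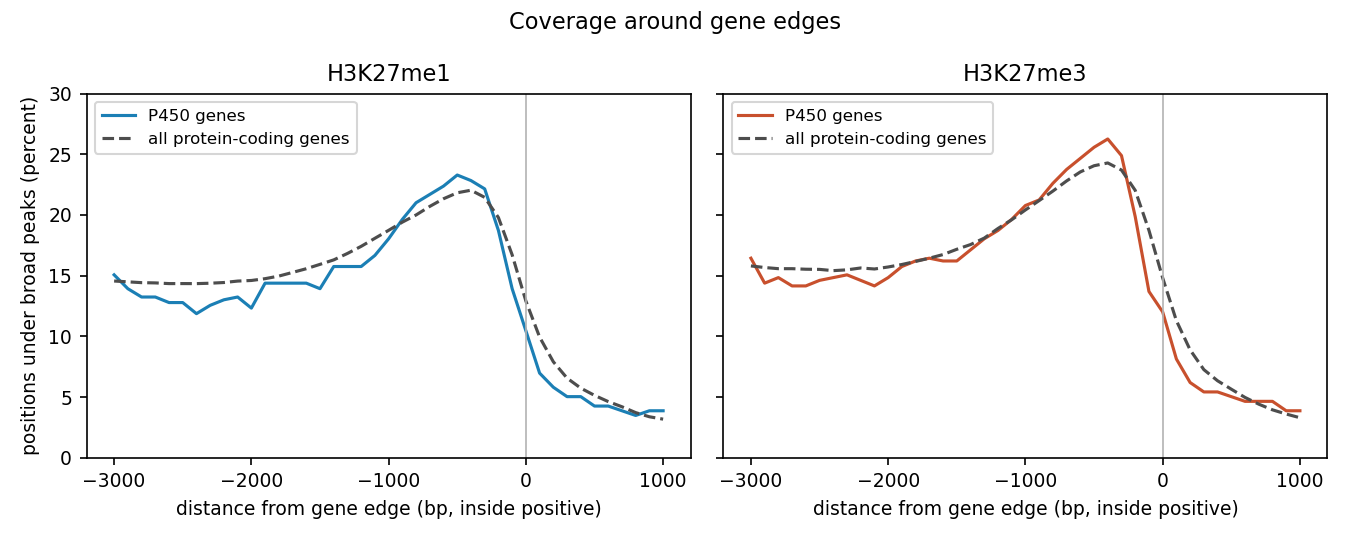
Percent of positions under broad peaks at each distance from a gene edge (bp, positive inside the gene), for H3K27me1 (left) and H3K27me3 (right), with both edges pooled. Solid lines are P450 genes and dashed lines all protein-coding genes, and points at the edge and inside the gene use only genes of at least 2000 bp. The P450 line passes from 22.8% and 26.3% at 400 bp outside to 10.5% and 12.02% at the edge.

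The most covered flanks belonged to genes that were themselves little covered, as were most P450 genes. CYP71B8 had 99.2% of its 1 kb flanks under H3K27me1 and 96.2% under H3K27me3, with 10.5% and 3.5% of the gene. CYP89A6 had 92.0% and 91.7% of its flanks covered and CYP89A7 had 86.2% and 88.2%. CYP716A2, of a family that oxidises triterpenes, had 85.2% and 81.5% of its flanks covered and 0% of the gene under both marks. CYP706A1 had 78.2% of its flanks under H3K27me1 and 100% under H3K27me3. In CYP71B13 the flanks were at 97.4% for H3K27me1 and 42.0% for H3K27me3. The opposite order was seen in CYP94C1, which oxidises the active jasmonate, with 62.2% and 93.8%, and in CYP82C3, with 31.4% and 88.5%.

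The 219 genes fall into 40 families by their number, of which 14 have at least 5 members and together hold 170 genes. A member was touched by at least 1 mark in 23 families and by neither in 17, and in 9 families neither a gene nor a 1 kb flank was touched. Only genes with a CYP symbol are counted, so families filed wholly under other symbols, such as CYP85, are missing. In CYP84 and CYP88, among the 9, a gene filed under another symbol had covered bases in gene or flanks. FAH1 (CYP84A1) had 46.15% and 44.25% of its 1 kb flanks covered, and KAO2 (CYP88A4) had 4.8% of the gene under H3K27me3. Most of the families without a touched gene have few members, so their counts cannot be compared with those of large families.

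CYP71, the largest family with 48 members, had 15 genes touched by H3K27me1 and 13 by H3K27me3, and 34 genes with a touched 1 kb flank under each mark. Over all genes, 22.7% and 26% of genes and 47.5% and 53.2% of flanks were touched. Its mean flank coverage was 30.9% for H3K27me1 (SD between genes 28.5) and 31.9% for H3K27me3 (SD 27.4). Within it, the 32 CYP71B genes had means of 35.9% and 34.1%, and the 16 CYP71A genes 20.9% and 27.7%. CYP705, the next largest family with 24 members, had 1 gene touched by H3K27me1 and 2 by H3K27me3, and mean flank coverage of 8.3% and 7.7%. The same order of these families was seen with narrow peaks, at 16.2% and 11.95% for CYP71 and 3.6% and 3.9% for CYP705. Members of a family often share a cluster, and neighbouring genes can share a peak, so the genes of a family are not independent observations.

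The other families ranged widely. Among families of at least 5 members, mean flank coverage was highest in CYP89 (6 genes), at 45.1% for H3K27me1 and 48.9% for H3K27me3. CYP706 (7 genes) had 36.1% and 34.1%, and the highest mean over the gene itself among families of at least 5, at 14.7% and 8.4%. CYP79 (7 genes), whose enzymes turn amino acids into oximes, had 41.2% under H3K27me1 with 7 genes touched in the flanks, and 23.2% under H3K27me3 with 3. Over all genes, 47.5% and 53.2% of flanks were touched. CYP86 (10 genes), the fatty acid hydroxylases, had 8.2% under H3K27me1 and 23.2% under H3K27me3, and CYP82 (5 genes) had 20.2% and 36.99%. With narrow peaks the means were 6.6% and 4.3% in CYP79, 5.0% and 4.5% in CYP86 and 11% and 4.5% in CYP82. With broad peaks of −log10 q of at least 5, all of these means were 0%. CYP702 (6 genes) had 4.9% and 12.6% and CYP72 (9 genes) had 6.5% and 11.1%. Single genes within a family spanned from 0% to above 90% in CYP71 and CYP89, so a family mean does not stand for each gene.

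**Figure D4:**
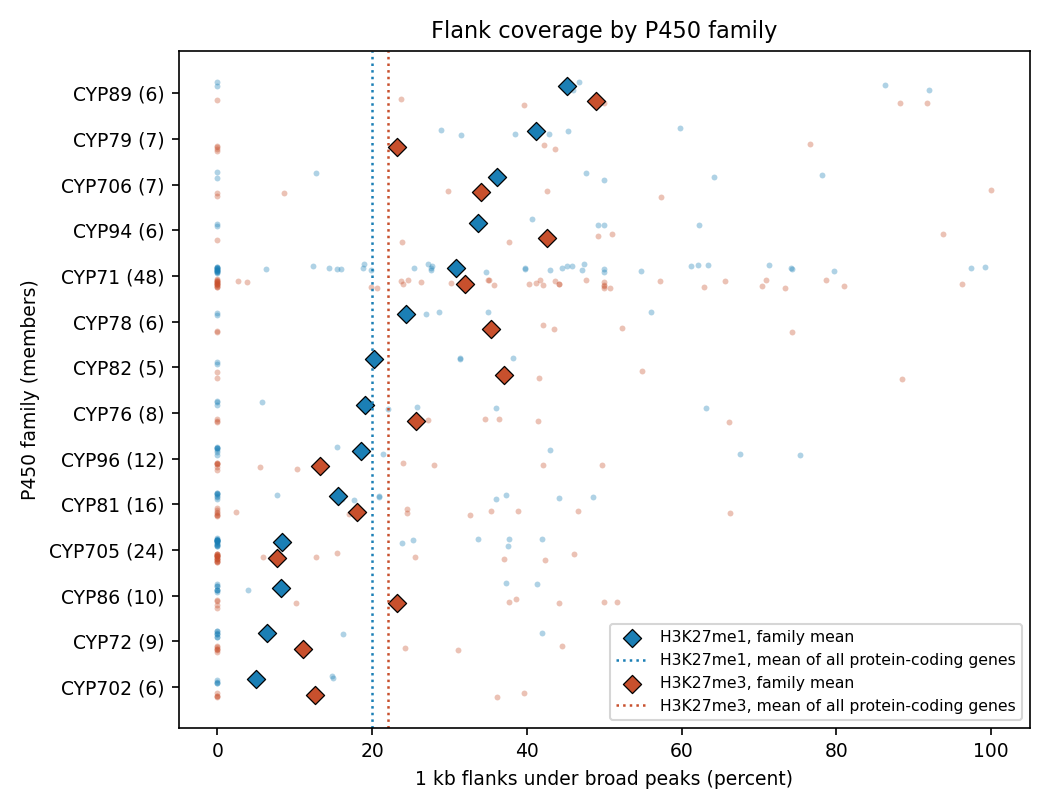
Percent of the 1 kb flanks under broad peaks, by P450 family for the 14 families with at least 5 members (number of members in brackets). Small dots are genes, shifted slightly up or down for visibility, diamonds are family means, and dotted lines are means over all protein-coding genes (19.96% for H3K27me1, 22.03% for H3K27me3). Families are ordered by their H3K27me1 mean, from CYP89 at 45.1% to CYP702 at 4.9%, and for H3K27me3 CYP705 is lowest at 7.7%.

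Of the 219 members, 133 lay in 41 tandem clusters, in which the next member is at most 10 kb away, and 86 were single. There were 23 pairs, 6 clusters of 3, 5 of 4, 3 of 6, 2 of 7, 1 of 8 and 1 of 9 genes. The widest gap inside the limit was 9534 bp, between CYP705A1 and CYP705A2, and the narrowest outside it was 11108 bp, between CYP702A3 and CYP705A1. H3K27me1 touched 22 clustered genes (16.5%) and 20 single genes (23.3%), and H3K27me3 touched 26 (19.5%) and 20 (23.3%), where 22.7% and 26% of all genes were touched. Mean coverage of the gene was 2.67% and 3.17% in clustered and 3.12% and 3.14% in single genes. The 1 kb flanks had means of 20.3% for H3K27me1 and 21.2% for H3K27me3 in clustered genes and 19.4% and 23.1% in single genes. The small H3K27me1 difference turned sign under the stricter q bound (−0.81 percentage points, clustered minus single).

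Between neighbouring tandem members with no annotated gene in between, 67 stretches held 78438 bases, of which 31.8% lay under H3K27me1 and 33.7% under H3K27me3. The 18913 stretches of at most 10 kb between neighbouring protein-coding genes had 34.5% and 37.6%. At least 50% of the stretch was covered in 15 of the 67 under each mark (22.4%), with 22.4% of all stretches for H3K27me1 and 25.5% for H3K27me3. At least 1 base was covered in 24 stretches by H3K27me1 (35.8%; 34.8% of all stretches) and in 25 by H3K27me3 (37.3%; 39.1% of all stretches). Coverage varied with the length of the stretch. The 42 under 1000 bp had 20.7% and 25.2% of their bases covered, against 20.5% and 24.2% in all stretches of that length. The 18 of 1000 to 3000 bp had 49.0% and 42.5%, against 36.4% and 40.4%, and the 7 of at least 3000 bp had 23.0% and 30.6%, against 39.6% and 41.3%.

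Clusters differed in where the marks lay. The CYP71B16 to CYP71B24 cluster of 9 genes had 18.9% of its span under H3K27me1 and 22.1% under H3K27me3, with 2 touched genes under each mark, CYP71B19 and CYP71B23. In the CYP71B25 to CYP71B37 cluster no gene of 7 was touched by either mark, and neither mark touched 68.8% of all genes. The sequence between its genes was covered at 37.6% and 27.1%, with 34.5% and 37.6% over all stretches between neighbouring protein-coding genes. That cluster value includes a stretch with the pseudogene CYP71B33, whereas the stretches over all genes hold no annotated gene. The CYP71A26 to CYP71A21 cluster of 6 genes had 40.2% and 44.7% between its genes. By contrast, the CYP705A15 to CYP705A23 cluster of 7 genes had 0% of its span under H3K27me1 and 2.8% under H3K27me3. The CYP72A7 to CYP72A15 cluster of 8 genes had no touched gene and 5.0% and 5.3% of its span covered, with a median of 133 bp between directly neighbouring CYP72 genes.

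**Figure D5:**
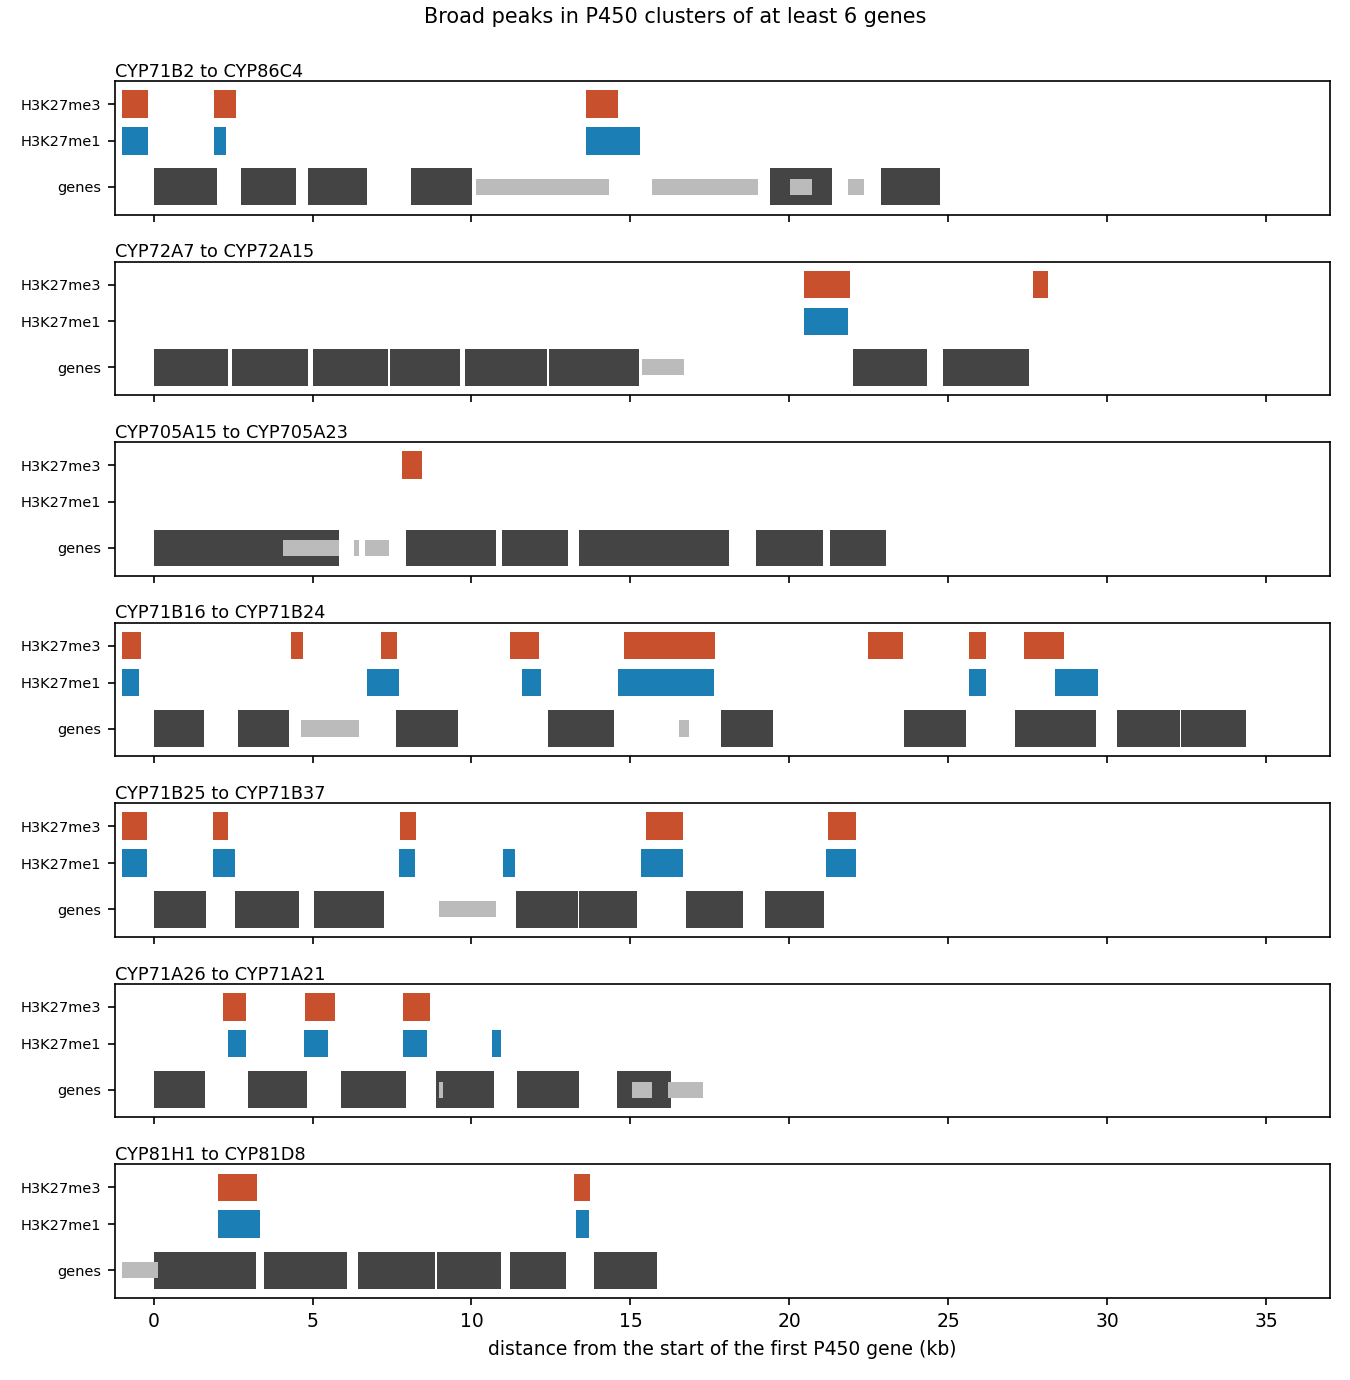
Maps of the 7 tandem clusters of at least 6 P450 genes, drawn to one scale in kb from the start of the first gene, with 1 kb on each side. Dark boxes are P450 genes, thin grey boxes other annotated genes, and blue and orange boxes merged broad peaks of H3K27me1 and H3K27me3. Most peaks of the CYP71 clusters stand between or beside the dark boxes, and the CYP705A15 to CYP705A23 cluster shows a single H3K27me3 peak and no H3K27me1 peak.

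Some single stretches between tandem neighbours were almost wholly covered. Between CYP89A6 and CYP89A5, 95.8% was under H3K27me1 and 98.3% under H3K27me3. Between CYP705A12 and CYP71A16, which act in the pathway of the triterpene marneral, 86.8% and 86.5% of 5662 bp were covered. Between CYP705A5 and CYP708A2 of the thalianol pathway, 29.0% and 31.3% of 7353 bp were covered. In other stretches the marks differed. Between CYP706A5 and CYP706A6, 95.7% was under H3K27me1 and 24.3% under H3K27me3, while the next stretch, to CYP706A7, had 0% and 92.1%. Between CYP79F2 and CYP79F1, which start the synthesis of methionine-derived glucosinolates, 76.7% was under H3K27me1 and 0% under H3K27me3.

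P450 genes of known pathways were listed from textbook roles. The 15 lists name 87 genes, all found in the annotation, of which 72 are members and 15 carry another symbol. Of the 72 listed members, H3K27me1 touched 13 (22.7% of all genes) and H3K27me3 touched 19 (26% of all genes), and neither covered any (5.49% and 5.67% of all genes). Their mean gene coverage was 1.72% and 3.23%. Of the 15 listed genes with another symbol, H3K27me1 touched 9 and covered 2, and H3K27me3 touched 11 and covered 3. Their mean gene coverage was 23.9% and 24.1%. This set differs from the 15 synonym genes set apart at the start. It includes AOS (CYP74A), whose P450 name has no gene number, and leaves out UNE9. Of the 15 synonym genes, H3K27me1 touched 9 and H3K27me3 touched 10, with mean gene coverage of 23.3% and 22.9%. UNE9 had 3.09% of the gene under H3K27me1 and 0% under H3K27me3. The counts of 1 and 0 covered genes given above are for genes filed under a CYP symbol. With the 15 synonym genes added, each mark covered 3 of 234 genes, against 5.49% of all genes for H3K27me1 and 5.67% for H3K27me3.

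With synonyms counted, each mark covered 3 P450 genes, and 2 of the 3 were enzymes of sterol and brassinosteroid metabolism. None of those covered enzymes is filed under a CYP symbol. Of 14 listed, 7 were touched by H3K27me1 (22.7% of all genes) and 6 by H3K27me3 (26% of all genes), and 2 were covered by each (5.49% and 5.67% of all genes). BR6OX2 (CYP85A2), which makes brassinolide, was at 100% for both marks, under an H3K27me1 peak at chr3:11798063-11815876 and an H3K27me3 peak at chr3:11801660-11814548. Its relative BR6OX1 (CYP85A1) had 74.0% under H3K27me1 and 26.7% under H3K27me3. Both genes lie in the pericentromere windows described below, where mean gene coverage over all genes was 26.5% and 21.5%. BAS1 (CYP734A1), which inactivates brassinosteroids, lies outside these windows and had 35.1% and 63.4%. DWF4, which hydroxylates the sterol side chain, had 39.8% and 11.9%, with 100% and 65.6% of its flanks. CPD, another enzyme of the pathway, had 9.89% and 26.97%, and ROT3 had 0% of gene and flanks under both marks.

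Jasmonate genes had the most covered flanks of the role lists with at least 4 genes. The 1 kb flanks of all 5 were touched by both marks, with mean coverage of 62.3% for H3K27me1 and 71.98% for H3K27me3. Over all genes, 47.5% and 53.2% of flanks were touched, with means of 19.96% and 22.03%. AOS (CYP74A), the first committed enzyme of jasmonate synthesis, had 11.96% and 18.2% of the gene and 100% of the flanks under each mark. HPL1 (CYP74B2), a hydroperoxide lyase that competes for the same substrate, had 36.1% and 54.6% of the gene covered. CYP94B3 and CYP94B1, which oxidise the active jasmonate, had 50.0% and 49.1% of their flanks under H3K27me1 and 50.95% and 49.1% under H3K27me3. With narrow peaks the flanks of both were at 0%, and those of CYP94C1, also listed, at 4.85% and 10.55%. With broad peaks of −log10 q of at least 5, the flanks of these CYP94 genes were at 0% for both marks.

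Other hormone genes varied, from CYP711A1, given above, to genes without a covered base. The abscisic acid hydroxylase gene CYP707A2 had 5.5% of the gene under H3K27me1 and 5.0% under H3K27me3, with 85.0% and 25.6% of its flanks. CYP707A1 and CYP707A4 had 0% of the gene under both marks. Of 5 gibberellin genes, H3K27me1 touched 1 (22.7% of all genes) and H3K27me3 touched 2 (26% of all genes). GA3, the ent-kaurene oxidase gene, was at 7.67% and 7.83%. CYP735A1, a cytokinin hydroxylase gene, had 0% and 7.4% of the gene and 54.9% and 74.2% of the flanks, while its relative CYP735A2 had 0% of both.

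In phenylpropanoid and flavonoid metabolism, TT7 (CYP75B1), the flavonoid hydroxylase gene, had 43.6% under H3K27me1 and 45.2% under H3K27me3. C4H, which starts the pathway among the P450 enzymes, was at 0% for both. Of the 7 listed genes, CYP98A3 was the other one with a touched gene, under H3K27me3. CYP98A8 and CYP98A9, which act in pollen on phenolamides, had 0% of gene and flanks under both marks. CYP703A2 and CYP704B1, the fatty acid hydroxylases of the pollen wall, likewise had 0% of gene and flanks under both marks.

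Of 11 listed glucosinolate genes, H3K27me1 touched 1 and H3K27me3 touched 3, where 22.7% and 26% of all genes were touched. Their 1 kb flanks were touched in 9 and 6, where the shares over all genes were 47.5% and 53.2%. CYP83A1, which acts on aliphatic oximes, had 4.0% and 6.4% of the gene covered, under peaks with a −log10 q of 5.12 and 6.58. CYP81F3, which modifies indole glucosinolates, had 0% and 11.4%. The 7 triterpene genes had 0 genes touched by H3K27me1 and 1 by H3K27me3, CYP71A16 at 11.2%, while flanks were touched in 7 and 6 with means of 37.3% and 32.7%. Over all genes, 47.5% and 53.2% of flanks were touched, with means of 19.96% and 22.03%. CYP716A1 and CYP716A2 lie in the pericentromere windows, where flank means over all genes were 48.6% and 43.1%. CYP705A12 and CYP71A16 share a flank peak of each mark, so the triterpene genes are not independent observations. In camalexin synthesis, PAD3 had 0% and 1.92% of the gene and 72.3% and 63.0% of the flanks, and CYP71A12 and CYP71A13 had 0% of the gene under both marks. In the CYP78A family of organ growth regulators, 2 of 6 genes were touched by each mark, CYP78A9 and CYP78A6, and CYP78A5 (KLUH) had 0% of gene and flanks.

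Few P450 genes lie near the centromeres. Windows of whole Mb around the centromeres held 13 members (5.94%) and 10.96% of all protein-coding genes. The 13 members had mean gene coverage of 7.55% for H3K27me1 and 2.52% for H3K27me3, against 26.5% and 21.5% for all genes in the windows, and flank means of 43.3% and 40.2%, against 48.6% and 43.1%. The 206 members outside had gene means of 2.55% and 3.20% (5.07% and 6.26% for all genes there) and flank means of 18.4% and 20.8% (16.4% and 19.4%). Outside the windows, the 1 and 0 covered members stood against 3.37% of all genes for H3K27me1 and 4.21% for H3K27me3. In the windows lay CYP81D1, CYP71B8, CYP716A2 and CYP702A8, which had 23.5% under H3K27me1 and 12.9% under H3K27me3 from peaks inside the gene with a −log10 q of 10.4 and 9.25.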

How the data were processed

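Immunoprecipitated sperm chromatin gave 4 deposited peak lists, a broad and a narrow one per mark. Per the submitters' processing notes, which give neither roles nor order, reads and peaks were handled with MACS2 2.1.0, deepTools 2.5.0.1, Bowtie2 2.1.0, Trim Galore 0.4.1, SAMtools 1.3, bedtools and Picard on TAIR10. The sources used here do not say how the samples and inputs were combined for peak calling. For each peak the authors deposited a start and end, a fold enrichment (a ratio) and a −log10 q-value. The remaining columns of the lists were not used. The lowest −log10 q was 1.02 in the broad and 2.00 in the narrow lists.

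Gene intervals and symbols came from a RefSeq table of 38312 genes on TAIR10.1, which gives no strand or exons, so no gene coordinate is printed. To check that both builds share their numbering, narrow peaks were moved along the genes by up to 3000 bp at 100 bp intervals. In 10 of 10 combinations of mark and chromosome, protein-coding genes held the smallest share of peak bases without a shift. Broad peaks were merged, and the covered percent was computed for genes and for flanks of 1 kb and 2 kb, including bases of neighbouring genes (Python 3.11.15, pandas 2.3.3). The code was tested on 600 simulated intervals with 0 mismatches.

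Pericentromere windows were 12 to 18 Mb on chromosome 1, 1 to 7 on 2, 11 to 17 on 3, 2 to 6 on 4 and 9 to 16 on 5. Named genes are, for each mark, the 10 with most gene and the 5 with most flank coverage, the 5 with the largest difference between marks in each direction, up to 4 per role list and the clusters of covered genes. Others were named after their values were seen. The members and lists were chosen with earlier results of these data known. No test was made, because there was 1 list per mark. Alternatives were narrow peaks, stricter peaks, other coverage bounds, flanks, cluster distances and membership by synonym.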

Additional observations from a re-analysis of the deposited data

How the results depend on the processing

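With narrow peaks the count of P450 genes covered over at least 50% by H3K27me1 was 0 instead of 1, and it was 0 with broad peaks of −log10 q of at least 5 and with a bound of 80%. It was 10 with a bound of 25%, 42 with at least 1 base and 3 of 234 when genes with a P450 name as synonym were included. For H3K27me3 the main count of 0 became 12, 46 and 3 under these last 3 settings. Mean coverage of the 1 kb flanks, 19.9% for H3K27me1 and 21.9% for H3K27me3, was 8.56% and 6.54% with narrow peaks, 4.04% and 2.77% at a −log10 q of at least 5, and 12.8% and 10.98% with the 50% of peaks of highest fold. Over all genes the same 3 settings gave 7.40% and 6.97%, 4.48% and 2.84%, and 11.3% and 12.5%. The number of families with a touched gene, 23, was 11 with narrow peaks and 7 at a −log10 q of at least 5. The H3K27me1 difference between clustered and single genes, 0.90 percentage points, became −0.81 at a −log10 q of at least 5, and the cause was not tested. Narrow or stricter lists hold fewer or shorter peaks by construction. The other 24 alternatives of the main results moved by less than the spread between genes or left the count within 1.5 times. Restriction to genes of 1500 to 3000 bp or outside the pericentromere windows, chosen after seeing the data, left counts of 1 and 0. No paired analysis was possible because the lists hold no values per sample. Depth is unknown, so an uncovered gene may lie below what these lists detect.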

Other observations

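P450 pseudogenes and genes that act beside P450 enzymes were looked at outside the main set. Among 17 records that are annotated as pseudogenes or carry a symbol ending in P, each mark touched 3. At least 50% was covered in 1 by H3K27me1 and in 0 by H3K27me3. Of all protein-coding genes, 22.7% and 26% were touched and 5.49% and 5.67% covered. CYP79A4P, of 468 bp, lay wholly under H3K27me1 and had 0% under H3K27me3. CYP51G2, a relative of the sterol demethylase gene CYP51G1, had 48.6% and 47.5% of its length and 90.6% and 90.2% of its 1 kb flanks covered. CYP51G1 itself had 0% of gene and 1 kb flanks under both marks, and 12.4% of its 2 kb flanks under H3K27me3.

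Of 25 listed partner genes, H3K27me1 touched 6 (22.7% of all genes) and H3K27me3 touched 8 (26% of all genes), and 0 were covered over at least 50% (5.49% and 5.67% of all genes). BARS1, a triterpene cyclase gene, had 32.8% under H3K27me1 and 10.7% under H3K27me3. GGP1, a glucosinolate gene, had 0% and 34.1%. ATR2, a P450 reductase gene, had 1.6% and 1.7% of the gene and 89.3% and 88.2% of its flanks covered, whereas the other reductase gene, ATR1, had 0% of the gene and of the flanks.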
